A study of Mus musculus with 13 samples.

Results

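The 10 genes described here are the transcription factors and cell-surface receptors that set up and maintain the melanocyte lineage. The transcription factors were Mitf, Sox10, Pax3, Tfap2a, Lef1 and Sox9, and the receptors were Kit, Ednrb, Mc1r and Erbb3. They were chosen by name for their known roles, and each was found by its symbol among the 22656 genes of the expression table. Of the 10 genes, 9 averaged 10 or more normalised counts over all libraries and were tested, 5 of the 6 transcription factors and all 4 receptors. Lef1 was below that level. None of the 9 passed the test between host genotypes after adjustment over all genes, and Ednrb had the largest difference, with no reads in 4 of the 8 APOE2 libraries.

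RNA was measured in cells of the mouse melanoma line B16F10-TR-shApoe, a B16F10 derivative whose name denotes a hairpin RNA against Apoe. All hosts received 100000 of these cells through the tail vein. The hosts were APOE2 knock-in mice (8 libraries) or APOE3 knock-in mice (5 libraries), which carry a human allele of apolipoprotein E, the lipid carrier of plasma and tissue. Both groups carried the hairpin line, lungs were digested on day 15, and GFP+ cells with low TO-PRO-3 dye (living cells) and without CD45 (the leukocyte antigen) were sorted. Each library was made with a kit that reads the end of polyadenylated RNA next to the poly(A) tail. The tumour cells came from 1 transplanted line, and the hosts are what differed. The labels do not give age, sex, litter or which libraries came from the same animals, so p-values measure the spread between these libraries.

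MITF is the basic helix-loop-helix factor that switches on pigment, survival and cell-cycle genes in melanocytes and melanoma. SOX10 and PAX3 activate the Mitf gene, LEF1 brings Wnt and beta-catenin signals to it, and MC1R raises it through cyclic AMP and CREB, whereas KIT signals act on MITF protein through MAP kinase. Endothelin signals through EDNRB and neuregulin signals through ERBB3 support neural crest cells and melanoblasts, the embryonic cells from which melanocytes come.

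The promoters below are printed because the Mitf start is where CREB and LEF1 are known to act, and Mc1r and Ednrb are receptors whose RNA was measured here. They come from RefSeq (GRCm38.p6), which covered 13 promoters of 6 of the 10 genes, each 250 bases before to 50 bases after a transcription start. Capitals mark matches, on either strand, to the E-box CACGTG, the M-box core CATGTG (a form of E-box bound by MITF), the cyclic AMP response element TGACGTCA, the LEF1 site CTTTGAT and the SOX site ACAAAG; these words do not overlap in the promoters shown. Of all 32851 promoters in the table, 7.15% held CACGTG, 14.2% CATGTG, 1.79% TGACGTCA, 3.73% CTTTGAT and 18.7% ACAAAG. The Mitf promoter is the one before the first exon of the melanocyte form, at chr6:97991533-97991832 on the plus strand, and it held 1 CTTTGAT and 1 TGACGTCA. The other 2 Mitf promoters in the table held no match. The Mc1r promoter, at chr8:123406832-123407131 on the plus strand, held 2 copies of the M-box core, of which the first reads CACATG on this strand. The Ednrb promoter, at chr14:103843652-103843951 on the minus strand, is shown because Ednrb had the largest difference in level, and it held no match to these 5 words. A match is a description of the letters and was not tested as a site.
Mitf: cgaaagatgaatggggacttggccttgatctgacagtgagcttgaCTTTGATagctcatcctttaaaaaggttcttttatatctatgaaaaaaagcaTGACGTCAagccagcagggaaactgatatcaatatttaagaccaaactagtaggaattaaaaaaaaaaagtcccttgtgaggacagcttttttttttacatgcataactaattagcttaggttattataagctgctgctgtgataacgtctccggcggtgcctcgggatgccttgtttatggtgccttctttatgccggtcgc
Mc1r: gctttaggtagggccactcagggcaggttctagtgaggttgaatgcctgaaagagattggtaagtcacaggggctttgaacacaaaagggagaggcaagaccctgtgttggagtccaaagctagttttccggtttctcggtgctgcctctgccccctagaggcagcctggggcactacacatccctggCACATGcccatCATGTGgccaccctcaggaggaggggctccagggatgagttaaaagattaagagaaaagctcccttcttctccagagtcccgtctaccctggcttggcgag
Ednrb: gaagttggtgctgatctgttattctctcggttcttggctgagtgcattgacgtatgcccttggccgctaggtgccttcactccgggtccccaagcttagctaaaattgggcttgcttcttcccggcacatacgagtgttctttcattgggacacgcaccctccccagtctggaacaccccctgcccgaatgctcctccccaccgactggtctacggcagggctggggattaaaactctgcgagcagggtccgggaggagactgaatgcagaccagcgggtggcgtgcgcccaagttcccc

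Recovered reads ranged from 7080308 to 13039989 per library, and 14026 to 17018 genes had reads in a library. The melanoma label held in all 13 libraries by its defining pigment genes: Pmel took 0.532% to 0.788% of the reads, Tyrp1 0.243% to 0.454%, Mlana 0.131% to 0.203%, Tyr 0.0218% to 0.0352%, and Dct 1.24% to 3.64%. Gm42418, a gene model that overlaps ribosomal RNA sequence, took 3.74% and 3.03% of the reads in APOE3 replicates 2 and 3, against 0.66% to 2.17% in the other 11 libraries. Lung genes were also read: the sum of 15 lung epithelium markers was 659 to 4190 normalised counts in APOE2 and 3536 to 22028 in APOE3. All 12 tested markers had the lower mean log2 value in APOE2, 11 at an unadjusted limma p under 0.05 and 6 with an adjusted p under 0.05. The part that such RNA has in the results was not tested except where a value is given.

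Across the 9 tested genes, 0 had a limma adjusted p under 0.05, against 0.79% of all 12403 genes (0.411% higher and 0.379% lower in APOE2). At an unadjusted limma p under 0.05 there was 1 gene, Ednrb, against 14.2% of all genes. On recovered reads edgeR and DESeq2 called 0 of the 9, beside 138 and 311 of all 12403 genes. In APOE2 hosts 3 of the 9 had the higher mean log2 value and 6 the lower, with a median difference of −0.04 on the log2(normalised count + 1) scale. For all tested genes the median was 0.00, with 6208 genes higher and 6195 lower. No tested lineage gene had groups that did not overlap, a separation seen in 0.984% of all tested genes. An exact permutation test (two-sided) enumerated the 1287 assignments of libraries to genotypes, where the smallest possible p is 0.000777. Ednrb alone was under an unadjusted 0.05, as were 13.8% of all genes, and after adjustment 0 of the 12403 genes passed. A gene alone at the smallest possible p could not pass adjustment over 12403 genes. This 0 is therefore limited by the number of assignments and says little about any gene.

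**Figure D1:**
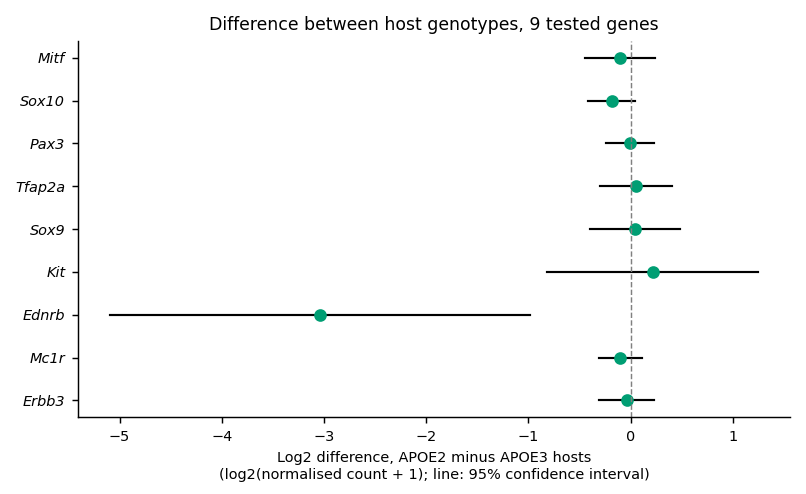
Log2 difference in normalised count + 1 between APOE2 and APOE3 hosts (horizontal axis) for the 9 tested genes (vertical axis), with points for the limma estimate and lines for its 95% confidence interval. The intervals of 8 genes cross 0, and that of Ednrb, from −5.09 to −0.99, is the widest.

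Mitf (ENSMUSG00000035158, chr6:97807052-98021349, plus strand, GRCm38) encodes the master factor of the lineage. It had 8047 ± 846 normalised counts in APOE2 hosts (SD, n = 8), with a lowest value of 6705, a median of 8192 and a highest of 9249. The APOE3 replicates 1 to 5 had 7790, 15651, 10336, 6332 and 5972 normalised counts (mean 9216 ± 3986, SD, n = 5). Replicates 2 and 3 lay above every APOE2 library and replicates 4 and 5 below every one, so the groups overlapped with APOE2 inside the APOE3 range. The limma log2 difference was −0.11 ± 0.17 (SE), an APOE2 to APOE3 ratio of 0.929 with a 95% interval of 0.732 to 1.18, and adjusted p = 0.819. The direction turned to 0.11 without APOE3 replicate 2 and to 0.27 without APOE3 replicates 2 and 3, the libraries rich in Gm42418, with adjusted p = 0.351 (limma). The coefficient of variation was 10.5% in APOE2 and 43.3% in APOE3, or 26.1% in APOE3 without replicate 2, and the difference in spread was not tested. The gene has 8 annotated transcripts, 6 of them coding with 6 different starts, and reads from RNA ends do not show which start was used.

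Sox10 (ENSMUSG00000033006, chr15:79154908-79165240, minus strand) encodes the neural crest factor that activates Mitf and pigment genes. Its APOE2 libraries held 4124 to 5033 normalised counts with a median of 4538 (mean 4540 ± 310, SD, n = 8). In APOE3, replicates 1 to 5 held 3984, 6571, 4660, 5093 and 5817 (mean 5225 ± 1005, SD, n = 5). Each of the 8 APOE2 values was under the mean of APOE3, yet APOE3 replicate 1 was lower than every APOE2 library. The limma log2 difference was −0.18 ± 0.11 (SE), with a ratio of 0.880 (95% interval 0.750 to 1.03) and adjusted p = 0.469.

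Pax3 (ENSMUSG00000004872, chr1:78101267-78197134, minus strand) encodes a paired-box factor that acts with SOX10 on Mitf. It had 2407 to 3487 normalised counts in APOE2 with a median of 3270 (mean 3086 ± 438, SD, n = 8). In APOE3 replicates 1 to 5 the values were 2982, 3209, 3495, 2828 and 2873 (mean 3077 ± 276, SD, n = 5). The groups overlapped, with 3 APOE2 libraries below every APOE3 library and 1 APOE3 library above every APOE2 library. The log2 difference of −0.01 ± 0.11 (SE, limma adjusted p = 0.990) changed sign with TMM scaling. The 95% interval of this difference put the ratio between 0.849 and 1.17.

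Tfap2a (ENSMUSG00000021359, chr13:40715302-40738376, minus strand) encodes AP-2 alpha, a neural crest factor that shares melanocyte enhancers with MITF. Its APOE2 range was 291 to 600 normalised counts with a median of 411 (mean 410 ± 94.0, SD, n = 8). Replicates 1 to 5 of APOE3 had 310, 461, 487, 301 and 411 (mean 394 ± 85.4, SD, n = 5), all inside the APOE2 range. The log2 difference was 0.06 ± 0.17 (SE), with limma adjusted p = 0.923. The annotation places 3 antisense genes over Tfap2a, of which Gm26688 (means of 21.8 in APOE2 and 13.8 in APOE3) and Gm47061 (14.7 and 7.91) were in the table, and whether counting used strand is not given in the sources used here.

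Sox9 (ENSMUSG00000000567, chr11:112782224-112787760, plus strand) encodes a SOX factor of early neural crest, cartilage and melanocyte precursors. In APOE2 it ranged from 427 to 669 normalised counts with a median of 524 (mean 532 ± 70.1, SD, n = 8). The APOE3 replicates 1 to 5 had 428, 899, 691, 234 and 567 (mean 564 ± 253, SD, n = 5). Replicates 2 and 3 were above every APOE2 library and replicate 4 was far below, so the coefficient of variation was 44.9% in APOE3 and 13.2% in APOE2. Without replicate 2 the APOE3 value was 40.8%, and without replicate 4 it was 31.0%. The log2 difference was 0.04 ± 0.21 (SE), with limma adjusted p = 0.950, and it moved between −0.24 and 0.25 when single libraries were left out. It was 0.46 without APOE3 replicates 2 and 3 (unadjusted p = 0.0289, limma adjusted p = 0.348) and 0.34 with Gm42418 as a covariate.

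Lef1 (ENSMUSG00000027985, chr3:131110471-131224356, plus strand) encodes the nuclear partner of beta-catenin. It gave 9 reads in all 8 APOE2 libraries together, with 6 libraries at 0, and 10 reads in the 5 APOE3 libraries, with 2 at 0. The highest values were 6.06 normalised counts in APOE2 and 8.10 in APOE3 replicate 5. A count of 0 allows up to 3 reads, which equal 2.04 to 3.47 normalised counts depending on the library, and no fold change is given for this gene.

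**Figure D2:**
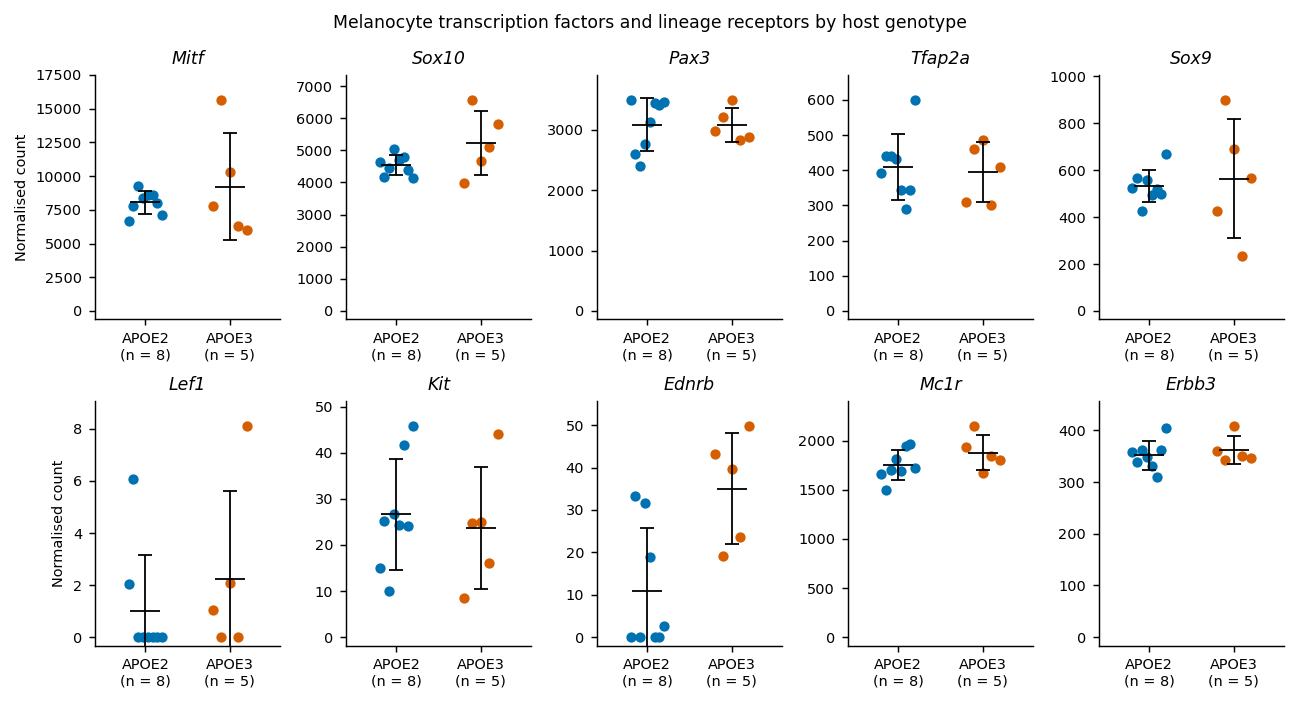
Normalised counts (vertical axes, from 0) of the 10 genes in APOE2 (blue, 8 libraries) and APOE3 hosts (orange, 5 libraries), 1 point per library, with the mean and SD as bars (cut off just below 0). Mitf and Sox9 spread widely in APOE3, and 4 APOE2 libraries have no Ednrb reads.

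Among the receptors, Ednrb (ENSMUSG00000022122, chr14:103814625-103844402, minus strand), which binds endothelins, had the largest difference. The 8 APOE2 libraries had a lowest value of 0, a median of 1.37 and a highest of 33.3 normalised counts. Replicates 1, 3, 6 and 7 were at 0, replicate 8 was at 2.75, and replicates 2, 4 and 5 were at 33.3, 31.7 and 19.0. The APOE3 replicates 1 to 5 had 43.2, 19.2, 39.6, 23.5 and 49.8. Thus 6 of the 8 APOE2 libraries were below every APOE3 library and the other 2 were inside the APOE3 range. Of the 6, APOE2 replicate 5 nearly tied with APOE3 replicate 2, at 19.01 against 19.21 normalised counts, from 18 and 17 reads. The means were 10.9 ± 14.9 (SD, n = 8) and 35.1 ± 13.1 (SD, n = 5), from 85 reads in APOE2 and 164 in APOE3. A count of 0 allowed up to 2.04, 2.76, 3.39 and 2.59 normalised counts in replicates 1, 3, 6 and 7, and since the reads carry no stated molecular identifiers, these limits cover counting error only. The limma log2 difference was −3.04 ± 0.99 (SE), with unadjusted p = 0.00539 and adjusted p = 0.160. On a log scale with 4 libraries at 0 this size depends on the pseudocount and was −1.84 with a pseudocount of 5, −1.69 by edgeR and −1.69 by DESeq2. The exact permutation p was 0.0280, with an adjusted p of 0.297. Of the 895 tested genes that averaged 15 to 25 normalised counts, 4 (0.45%, Ednrb among them) had 4 or more APOE2 libraries at 0. The band and the limit of 4 match Ednrb's own values, so Ednrb is among them by construction. The share is a description and not a test of Ednrb.

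Kit (ENSMUSG00000005672, chr5:75574916-75656722, plus strand), the receptor tyrosine kinase for stem cell factor, was also read at low counts, with 222 reads in APOE2 and 109 in APOE3. Its APOE2 range was 10.1 to 45.8 normalised counts with a median of 24.8 (mean 26.6 ± 12.1, SD, n = 8). Replicates 1 to 5 of APOE3 had 8.43, 24.86, 24.98, 16 and 44.0 (mean 23.7 ± 13.3, SD, n = 5). Low and high libraries occurred in both groups. The log2 difference was 0.22 ± 0.50 (SE, limma adjusted p = 0.890), and its 95% interval put the ratio anywhere from 0.568 to 2.37. The coefficients of variation, 45.3% in APOE2 and 56.2% in APOE3, were above the 19.0% and 21.4% that counting alone gives.

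Mc1r (ENSMUSG00000074037, chr8:123407107-123410744, plus strand), the melanocortin receptor, was even across the libraries. It had 1497 to 1962 normalised counts in APOE2 with a median of 1716 (mean 1752 ± 154, SD, n = 8). In APOE3, replicates 1 to 5 had 1932, 2147, 1671, 1840 and 1804 (mean 1879 ± 177, SD, n = 5), with only replicate 2 above the APOE2 range. The log2 difference was −0.10 ± 0.10 (SE), with a ratio of 0.933 (95% interval 0.806 to 1.08) and limma adjusted p = 0.697. The opposite-strand gene model Gm38092 overlaps Mc1r in the annotation and was not among the genes used here.

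Erbb3 (ENSMUSG00000018166, chr10:128567523-128589652, minus strand), the kinase-weak neuregulin receptor, also held a narrow range. In APOE2 it had 309 to 405 normalised counts with a median of 353 (mean 352 ± 27.9, SD, n = 8). In APOE3 replicates 1 to 5 it had 359, 342, 408, 350 and 346 (mean 361 ± 26.9, SD, n = 5), with replicate 3 the highest of all 13 libraries. The log2 difference was −0.04 ± 0.13 (SE), with limma adjusted p = 0.928 and a 95% interval of the ratio from 0.806 to 1.18.

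Endothelial cells express both Ednrb and Kit, so the markers of lung endothelium are given beside them. All 15 markers had the lower mean log2 value in APOE2, with a median difference of −1.52, 10 at an unadjusted limma p under 0.05 and 2 with an adjusted p under 0.05 (Esam and Calcrl). Their summed level was 589 to 833 normalised counts in APOE2 and 734 to 2264 in APOE3, and the most abundant was Egfl7, at 177 ± 29.7 (SD, n = 8) and 281 ± 76.0 (SD, n = 5). With the mean log2 endothelial level of each library as a covariate, the Ednrb difference was −2.21 ± 1.54 (SE), with unadjusted p = 0.163 and limma adjusted p = 0.839. The SE was 0.99 without the covariate, which itself differed between genotypes, and 0 of all tested genes were called with it. With the lung epithelium level as a covariate the Ednrb difference was −3.54 ± 1.51 (SE), with unadjusted p = 0.0282 and limma adjusted p = 0.697, and again 0 of all tested genes were called. The endothelial covariate moved Kit the other way, from 0.22 to 1.31 ± 0.72 (SE), with unadjusted p = 0.0840 and limma adjusted p = 0.793. Within genotypes, Ednrb and the endothelial level had r = 0.19 (permutation p = 0.467, adjusted 0.867) and rho = 0.18 (permutation p = 0.528, adjusted 0.966) over 13 libraries, and r = 0.25 without the 2 libraries farthest from the median. APOE3 replicate 1 had a mean log2 endothelial level of 4.71, inside the APOE2 range of 3.67 to 5.27, and 43.2 normalised counts of Ednrb. In a mixture, fewer cells of a type and less RNA per cell cannot be told apart, so these values do not separate melanoma Ednrb from that of other cells.

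**Figure D3:**
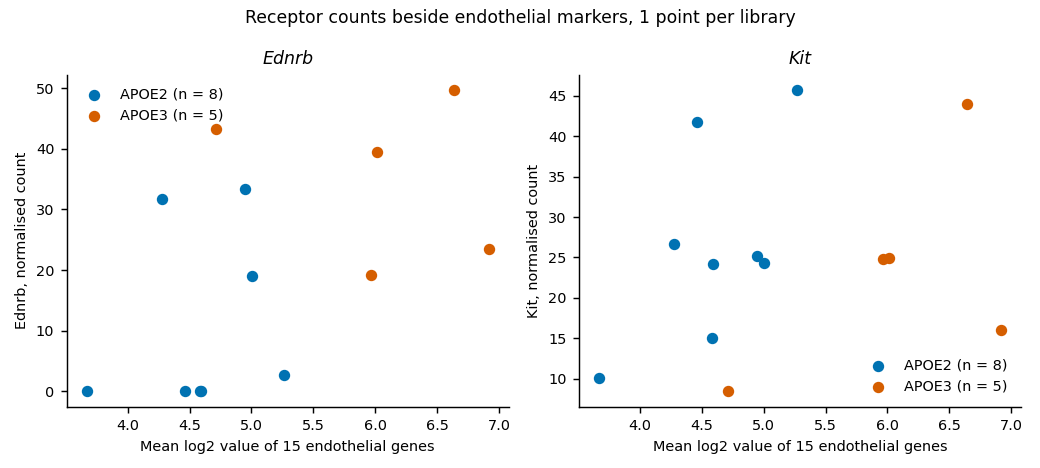
Normalised counts of Ednrb (left) and Kit (right) on the vertical axes against the mean log2 value of 15 endothelial genes on the horizontal axes, 1 point per library, APOE2 in blue and APOE3 in orange. APOE3 replicate 1 lies among the APOE2 libraries in endothelial level and has 43.2 counts of Ednrb and 8.43 of Kit.

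Outside melanocytes, Kit is a mast cell gene, Erbb3 and Sox10 are Schwann cell genes, Lef1 is a T cell gene and Sox9 is a gene of cartilage and airway epithelium. The gate described above, GFP+ and without CD45, is set to leave out all of these host cells, and their markers are given as a check of what was read. Of 8 mast cell markers only Cma1, at 0 in 12 libraries, and Hdc were in the table, and Hdc had 27.7 ± 16.2 (SD, n = 8) and 92.9 ± 57.3 (SD, n = 5) normalised counts with a limma adjusted p of 0.161. Of 8 T cell markers 7 were in the table, with Cd3e at 0 in 10 libraries and Trac at 0 in 11, and only Lck, the most abundant, was tested (log2 difference −0.39, limma adjusted p = 0.796). Of 8 Schwann cell markers 7 were tested and 0 passed by limma, with 2 higher and 5 lower in APOE2 and a median log2 difference of −0.38. The 2 lower at an unadjusted p under 0.05, named after their values were seen, were Prx (−2.14, adjusted p = 0.171), which lung endothelium also expresses, and Gfap (−1.98, adjusted p = 0.204). The most abundant was S100b, at 6266 ± 1561 (SD, n = 8) and 5842 ± 1804 (SD, n = 5), a gene that melanoma cells also express. Of 7 cartilage markers 4 were tested and 0 passed, and the most abundant, Hapln1, averaged 47.4 in APOE2 and 67.0 in APOE3. Lung epithelium was led by Sftpc, at 1212 and 5949 normalised counts. All 7 tested fibroblast and smooth muscle markers were lower in APOE2, 1 of them with a limma adjusted p under 0.05. Dcn, the most abundant, averaged 56.5 ± 43.8 (SD, n = 8) and 210 ± 306 (SD, n = 5), the latter 74.6 without APOE3 replicate 4. Of 8 tested leukocyte markers 7 were lower and 1 higher in APOE2, with 4 of the lower at an unadjusted limma p under 0.05. The 2 with an adjusted p under 0.05, Lyz2 and Cd74, are also expressed by alveolar type II cells, the source of Sftpc. Lyz2, the most abundant, averaged 1162 ± 694 (SD, n = 8) and 5288 ± 3944 (SD, n = 5). Ptprc, which encodes CD45, averaged 6.90 and 14.01, with a mean over all libraries below the level tested.

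Few ligands of these receptors could be tested. Of 9 ligand genes 6 were in the table and 3 were tested, with 0 called and 1 at an unadjusted limma p under 0.05. Edn1, an endothelin and ligand of EDNRB, had 12.2 ± 12.9 normalised counts in APOE2 (SD, n = 8) and 39.9 ± 32.3 in APOE3 (SD, n = 5), a log2 difference of −1.99 ± 0.84 (SE) with limma adjusted p = 0.285. Kitl, which encodes stem cell factor, had 21.4 ± 15.5 and 39.3 ± 23.7 (adjusted p = 0.490). Pomc, whose product is cut into the MC1R ligand alpha-MSH, had 68.5 ± 29.2 and 47.8 ± 19.2 (adjusted p = 0.573).

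Downstream of the receptors, 28 of 31 listed partners, kinases, G proteins and adaptors were tested and 0 were called, with 16 higher and 12 lower and a median log2 difference of 0.05. The smallest p-values were those of Map2k1, the MAP kinase kinase MEK1, Gnaq, a G protein subunit that couples to EDNRB, and Grb2, an adaptor of receptor kinases. Map2k1 had 1734 ± 185 normalised counts in APOE2 (SD, n = 8) and 1263 ± 456 in APOE3 (SD, n = 5), a log2 difference of 0.55 ± 0.18 (SE) with limma adjusted p = 0.163. It passed without APOE3 replicate 1, at 0.70 with limma adjusted p = 0.0453, where 228 of all tested genes were called. Gnaq differed by 0.38 ± 0.15 (adjusted p = 0.236) and Grb2 by 0.25 ± 0.11 (adjusted p = 0.279) in the same direction.

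Genes that MITF is known to bind and activate were set beside it, and the activity of MITF was not tested. Of 22 listed, 21 were tested and 0 were called by limma, with 17 higher and 4 lower in APOE2 and a median log2 difference of 0.10. At an unadjusted limma p under 0.05, 3 were higher and 1 lower, beside 14.2% of all tested genes in either direction. Rab27a, which carries melanosomes along the cell periphery, had 1167 ± 149 normalised counts in APOE2 (SD, n = 8) and 852 ± 157 in APOE3 (SD, n = 5), a difference of 0.47 ± 0.13 (SE) with limma adjusted p = 0.0925. Dct, a melanin synthesis enzyme, had 232522 ± 53539 and 150389 ± 38893, a difference of 0.64 ± 0.19 with adjusted p = 0.126. Mreg, a melanosome transfer gene, had 92.8 ± 17.8 and 58.5 ± 27.9, a difference of 0.78 ± 0.31 with adjusted p = 0.250. Dct passed by edgeR (adjusted p = 0.0467), by DESeq2 (0.00796) and without APOE3 replicate 2 (0.0471), and Rab27a passed by DESeq2 (0.0335) and without APOE3 replicate 1 (0.0453). Over all tested genes, edgeR called 138, DESeq2 311, the fit without APOE3 replicate 2 called 76 and that without APOE3 replicate 1 called 228. In the main limma fit, where neither Dct nor Rab27a passed, Mitf itself differed by −0.11, which is within its error. Mitf differed by −0.187 by edgeR, −0.195 by DESeq2, 0.108 without APOE3 replicate 2 and −0.143 without APOE3 replicate 1, and passed in none of them.

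In the Wnt and beta-catenin list around LEF1, 19 of 22 genes were tested and 0 were called, none at an unadjusted limma p under 0.05, with 6 higher, 13 lower and a median of −0.12. The feedback inhibitor Nkd1 had 10.1 ± 8.80 (SD, n = 8) and 45.1 ± 59.2 normalised counts (SD, n = 5), the latter 19.0 without APOE3 replicate 4 (log2 difference −1.83 ± 0.90, SE, limma adjusted p = 0.357), followed by the nuclear cofactor Pygo2 (−0.22, adjusted p = 0.442) and the receptor Fzd3 (1.09, adjusted p = 0.458). Among relatives of the transcription factors and other neural crest regulators, 10 of 18 were tested and 0 were called, with 3 higher, 7 lower and a median of −0.05. Sox6, a SOX factor without an activation domain, had 1000.28 ± 96.5 normalised counts in APOE2 (SD, n = 8) and 1228 ± 236 in APOE3 (SD, n = 5), a difference of −0.28 ± 0.12 with limma adjusted p = 0.306. The MITF relative Tfe3 differed by −0.42 (adjusted p = 0.377) and the T-box repressor Tbx3 by −1.41 (adjusted p = 0.400). Of 17 genes raised in dedifferentiated, MITF-low melanoma, 9 were tested and 0 were called, with 3 higher, 6 lower and a median of −0.07. Zeb1, a repressor of epithelial genes, differed by −2.02 ± 1.02 (adjusted p = 0.374), the matrix gene Tgfbi by −1.58 (adjusted p = 0.440) and the intermediate filament gene Nes by 0.33 (adjusted p = 0.690). The medians of these lists are read beside 0.00 for all tested genes, and the lists were given no test of their own.

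Among the libraries, APOE3 replicate 2 had the highest value of all 13 libraries for Mitf, Sox10, Sox9 and Mc1r. APOE3 replicate 3 was highest for Pax3 and Erbb3, APOE3 replicate 5 for Ednrb, and APOE2 replicate 8 for Tfap2a and Kit. After each genotype mean was removed, the 36 pairs of tested genes had Pearson r from −0.47 to 0.68, 25 above 0 and 11 below, and 0 passed adjustment over the 36. Tfap2a and Sox9 had r = 0.66 (permutation p = 0.00539, adjusted 0.194) and rho = 0.74 (permutation p = 0.0105, adjusted 0.128), and r = 0.76 without the 2 libraries farthest from the Tfap2a median. Tfap2a and Erbb3 had r = 0.68 (permutation p = 0.0166, adjusted 0.298) and rho = 0.48 (permutation p = 0.110), and r fell to 0.32 without the 2 farthest libraries, on which it rests. Sox10 and Erbb3 went in opposite directions, with rho = −0.69 (permutation p = 0.00815, adjusted 0.128) and r = −0.47 (permutation p = 0.105). Sox9 and Kit had rho = 0.75 (permutation p = 0.0107, adjusted 0.128) and r = 0.48 (permutation p = 0.159).

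**Figure D4:**
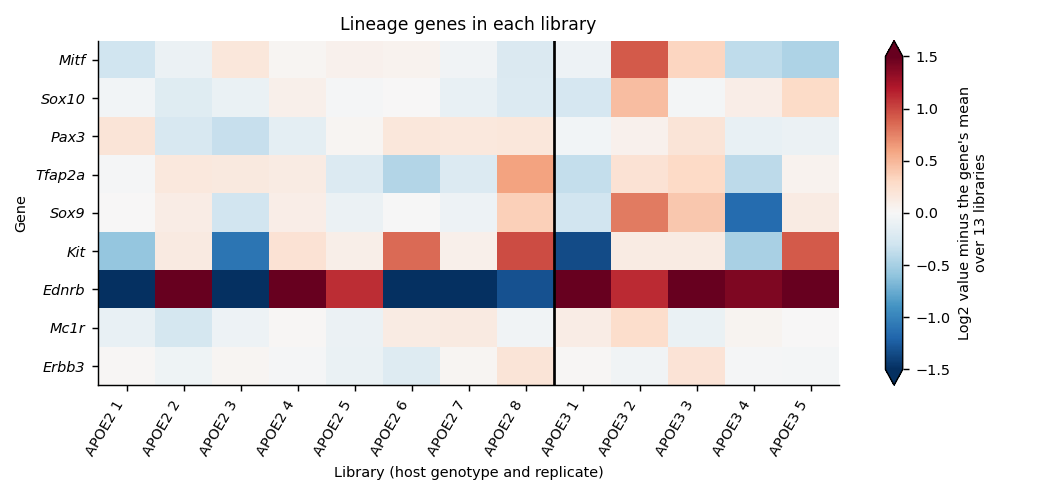
Log2(normalised count + 1) of each tested gene (rows) in each library (columns, APOE2 left of the line and APOE3 right) minus the gene's mean over 13 libraries, with colours limited to 1.5 in either direction. APOE3 replicate 2 is high for Mitf, Sox10, Sox9 and Mc1r, and the Ednrb row has the strongest colours.

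The same genes were set against 3 measures of each library, the endothelial level, the lung epithelium level and the log2(normalised count + 1) of Gm42418. Of these 27 relations 0 passed adjustment. Mitf and Gm42418 had r = 0.67 (permutation p = 0.0447, adjusted 0.603) and rho = 0.58 (permutation p = 0.102, adjusted 0.834), and r was 0.00 without the 2 libraries farthest from the median of Gm42418. Kit and the endothelial level had r = 0.66 (permutation p = 0.0272, adjusted 0.603), rho = 0.35 (permutation p = 0.287, adjusted 0.966) and r = 0.78 without the 2 farthest. With Gm42418 as a covariate the Mitf difference was 0.19 in place of −0.11. Against the 21 tested MITF targets, Mitf had 13 positive and 8 negative correlations and Sox10 had 14 and 7, with 0 of the 42 past adjustment (lowest adjusted permutation p = 0.423). The 3 with an unadjusted permutation p under 0.05 were Sox10 with Mlph (r = 0.79, p = 0.0159, rho = 0.63, permutation p = 0.0672), Mlana (r = 0.64, p = 0.0261, rho = 0.61, permutation p = 0.0501) and Met (r = 0.73, p = 0.0496, rho = 0.64, permutation p = 0.0663). Without the 2 libraries farthest from the Sox10 median r was 0.39, 0.52 and 0.25. Mitf and Tyr, the rate-limiting enzyme of melanin synthesis, had r = 0.62 (permutation p = 0.0592, adjusted 0.423) and rho = 0.69 (permutation p = 0.0215, adjusted 0.437), and r = 0.67 without the 2 farthest libraries.

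Genes outside the set with the most similar pattern, by Pearson r of genotype-centred log2 values over 13 libraries, are given as a description. Mitf was most like Herc2 (r = 0.95) and Nfia (0.91), and Sox9 was most like Kdm7a (0.95) and Gm48996 (0.95). Sox10 was most like Calr (0.88) and Atp6v0e2 (0.88), Pax3 like Rnf2 (0.89) and Nr2f2 (0.88), and Tfap2a like Akt2 (0.88) and Epha10 (0.86). Among the receptors, Kit was most like Afap1l1 (0.88) and Arl11 (0.87), Ednrb like Slc25a43 (0.86) and Cox7a1 (0.85), Mc1r like Cant1 (0.85) and Lpgat1 (0.81), and Erbb3 like Tgds (0.87) and Adprhl2 (0.86). Each was picked as the highest correlation among all tested genes, over 13 libraries that share their depth and scaling.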

How the data were processed

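The values deposited by the authors are normalised counts (a signal of gene counts over a size factor) for 22656 genes in 13 libraries. Per the submitters' processing notes, the genome build was mm10 and the tools were STAR 2.6.0, featureCounts and DESeq2 1.28.1; their settings, the annotation and the use of strand are not given in the sources used here. Dividing each column by its smallest nonzero value gave whole reads for 100% of values (tolerance 0.01), used for depth and for edgeR and DESeq2, and 0 columns belonged to no sample. Symbols and GRCm38 coordinates (the assembly of mm10) came from GENCODE M21, which named 22649 identifiers, and 7 had no symbol.

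Genotype came from the labels. The 12403 genes averaging 10 or more normalised counts were compared with limma 3.58.1 (R 4.3.3, intensity trend, two-sided, Benjamini-Hochberg, threshold 0.05) on log2(normalised count + 1), a scale on which the change of low genes depends on the pseudocount. The edgeR 4.0.16 quasi-likelihood test on recovered reads called 138 genes and DESeq2 1.42.0 called 311. Correlations used values with the genotype mean removed and 100000 two-sided permutations within genotypes (SciPy 1.17.1, NumPy 2.4.6). The limma step was tested on simulated data.

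The 10 genes, 6 pathway lists and 8 marker lists were chosen with earlier results of these data known. Genes named are the 10, the 3 smallest p-values of each pathway list with any past the threshold, the 2 most similar genes to each tested gene, the most abundant gene of each marker list and defining markers at 0 (except 1 not reported here), and overlapping genes. Alternatives were pseudocounts of 0.5 and 5, other scalings, filters and variance models, a replicate block, marker covariates and each library left out. The Gm42418 covariate, APOE3 replicates 2 and 3 left out together and the exact permutation test over all genes were added after seeing the data. The count of genes with APOE2 libraries at 0 was also not planned.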

Additional observations from a re-analysis of the deposited data

Results flagged for a closer look

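Erbb3 in APOE3 replicate 3 stood apart from the other 4 APOE3 libraries, at 407.95 normalised counts against 342 to 359. On the log2(normalised count + 1) scale the gap to the nearest library was 0.726 of the group's range, above Dixon's critical value of 0.710 for 5 samples. The highest APOE2 library had 405. It was the 1 value so marked among 20 groups screened (10 genes in each genotype), and chance marks about 1 in 20.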

How the results depend on the processing

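Across 268 alternative fits of the 9 tested lineage genes, 0 passed the threshold and 31 changed sign. The fits reuse the same libraries, and the settings called from 0 to 311 of all tested genes. A count of 0 among 9 genes therefore does not set the lineage genes apart. Sox10, Ednrb and Mc1r kept their direction in all of theirs. Fits with another filter, without the variance trend, with robust variance or by exact permutation keep the main estimate, so no sign could change there. The sign of Mitf changed with the Gm42418 covariate (0.19) and without APOE3 replicates 2 and 3 (0.27). Pax3 changed to 0.003 with TMM scaling, 0.001 with array weights, 0.081 and 0.152 with the endothelium and epithelium covariates, 0.094 with Gm42418, 0.079 without APOE3 replicates 2 and 3, 0.012 by edgeR and 0.005 by DESeq2. Tfap2a changed to −0.083 with the epithelium covariate. Sox9 changed to −0.003 with the replicate block, −0.001 and −0.017 with the endothelium and epithelium covariates, −0.073 by edgeR and −0.082 by DESeq2, and Kit to −0.12 with the replicate block. With single libraries left out, the log2 difference ranged from −0.24 to 0.11 for Mitf, −0.034 to 0.044 for Pax3, −0.034 to 0.139 for Tfap2a, −0.24 to 0.25 for Sox9, −0.086 to 0.478 for Kit and −0.069 to 0.005 for Erbb3, and the cause was not tested.

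Calls over all genes numbered 98 and moved to 9 with no filter on low values, 0 without the variance trend and 43 with the replicate block. They moved to 0 with the endothelium or the epithelium covariate, 2 with Gm42418, 1 without APOE3 replicates 2 and 3 and 311 by DESeq2. Exact permutation called 0, a count limited by its smallest possible p. With single libraries left out, calls ranged from 9 (without APOE3 replicate 3) to 228 (without APOE3 replicate 1). With equal library totals 38 were higher and 54 lower (41.3% higher against 52.0%), and the median of all genes moved by −0.04. Calls in the pathway lists numbered 0, 1 by edgeR, 2 by DESeq2 and 0 to 2 with single libraries left out. Lineage gene pairs past adjustment numbered 0, and 0 to 1 with single libraries left out (1 without APOE2 replicate 3). Ednrb ranged from −3.55 to −1.69 over settings and from −3.48 to −2.75 with single libraries left out, with adjusted p from 0.116 to 0.839; the replicate block gave −2.19 (limma adjusted p = 0.499). Kit and Ednrb gave no value at a minimum mean of 50. Deviations of same-numbered libraries correlated between −0.06 and 0.01, which gave no sign of pairing. Such values cannot show whether these libraries shared a litter or day, which the labels do not give.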
